A study of Mus musculus with 7 samples.

Results

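The nuclear-encoded subunits of oxidative phosphorylation were followed in mouse spleen after an injection of lipopolysaccharide (LPS, a component of the bacterial cell wall). Members were chosen by name: genes whose symbol began with Nduf followed by a, b, c, s or v and a number, Sdha to Sdhd, and symbols beginning with Uqcr, Cox4 to Cox8 or Atp5, with a mean of at least 5 FPKM over the 7 libraries. FPKM counts a gene's fragments per kilobase of its transcript, scaled by the total of the library, so that genes of different length can be set side by side. Of 17920 genes, 82 matched by name and 76 of these reached the minimum: 36 of 37 in complex I, 4 of 4 in complex II, 8 of 8 in complex III, 12 of 16 in complex IV and 16 of 17 in complex V. The lowest member, Cox6b2, had a mean of 7.73 FPKM, and the highest gene left out, Cox6a2, had a mean of 4.89 FPKM. All 76 members also passed the filter of the tests, a mean of at least 1 FPKM, which 11378 genes passed.

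Oxidative phosphorylation is the chain by which mitochondria make ATP. Complex I (NADH dehydrogenase) and complex II (succinate dehydrogenase, also an enzyme of the tricarboxylic acid cycle) pass electrons through ubiquinone to complex III (cytochrome bc1), and cytochrome c carries them to complex IV (cytochrome c oxidase), which reduces oxygen. Complexes I, III and IV pump protons, and complex V (ATP synthase) uses the gradient. In macrophages, LPS is known to shift energy metabolism from this chain towards glycolysis, with a build-up of succinate. Complex II is encoded by nuclear genes alone, whereas the other complexes also hold subunits encoded by mitochondrial DNA, of which 0 of 13 were listed in the table, so that they were not analysed here. Several names stand for proteins at the edge of a complex: Ndufa4 is now counted with complex IV, Cox7a2l helps to join complexes III and IV into supercomplexes, and Atp5sl (RefSeq symbol Dmac2) is an assembly factor of complex I. They were kept where their names put them.

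The mice were C57BL/6 animals of 8 weeks, injected intraperitoneally with 20 mg/kg LPS, and the spleen was taken after 90 min or 6 h. The genotypes were wild type and a deficiency of GdX (UBL4A, a ubiquitin-like protein that takes part in the insertion of tail-anchored membrane proteins), written GdX-/- in the sample labels and GdX-/Y in other label text, the gene Ubl4a being on the X chromosome. Wild type was measured in 2 libraries at 90 min and 2 at 6 h, and GdX-deficient spleen in 2 libraries at 90 min and 1 at 6 h. The design text counts 4 wild-type and 3 GdX-deficient mice, and all had received LPS, so no value before LPS was analysed here. The GdX-deficient group at 6 h has no replicate, and comparisons that rest on it alone are given without a test.

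Ubl4a itself read 5.62 and 7.50 FPKM in wild type at 90 min, 4.03 and 5.69 in GdX-deficient spleen at 90 min, 11.88 and 14.01 in wild type at 6 h and 10.56 in the GdX-deficient library at 6 h. The genotypes thus overlapped at 90 min, and the gene's own value did not separate them. Gm44504, an overlapping readthrough gene that joins Slc10a3 to Ubl4a, read 14.52 to 51.10 FPKM in the 4 wild-type libraries and 0.66 to 1.86 in the 3 GdX-deficient ones. The part of the gene that was deleted is not given in the sources used here, and values of overlapping genes are uncertain. The steps between low values put the depth at 1.84e+07 to 2.06e+07 fragments per library, and the member with fewest fragments, Cox6b2, had about 33 to 150. Summed markers of the spleen were present in every library, with 529.2 to 2274 FPKM for 8 B cell genes and 313.7 to 774.8 FPKM for 8 red pulp macrophage genes, whereas the 3 brown fat genes listed in the table together reached at most 0.32 FPKM.

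The libraries of each wild-type pair differed from each other over most members and over short transcripts in general. The median transcript length was 756.5 bases over the members and 2782 bases over the genes tested. Within wild type at 6 h, replicate 1 exceeded replicate 2 in 68 of 76 members, by a median of 0.74 on the log2(FPKM + 1) scale, and the 806 tested genes with transcripts of at most 1000 bases, members included, had a median difference of 0.56. Within wild type at 90 min the same number of members, 68 of 76, was higher in replicate 1, by a median of 0.36. The GdX-deficient libraries at 90 min differed by a median of 0.02 over the members. Wild-type replicate 1 at 6 h was the highest of the 7 libraries for 57 of 76 members, and the GdX-deficient libraries at 90 min were the lowest for 23 and 34. A measured level in whole spleen cannot tell fewer cells of a type from less RNA per cell.

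**Figure D1:**
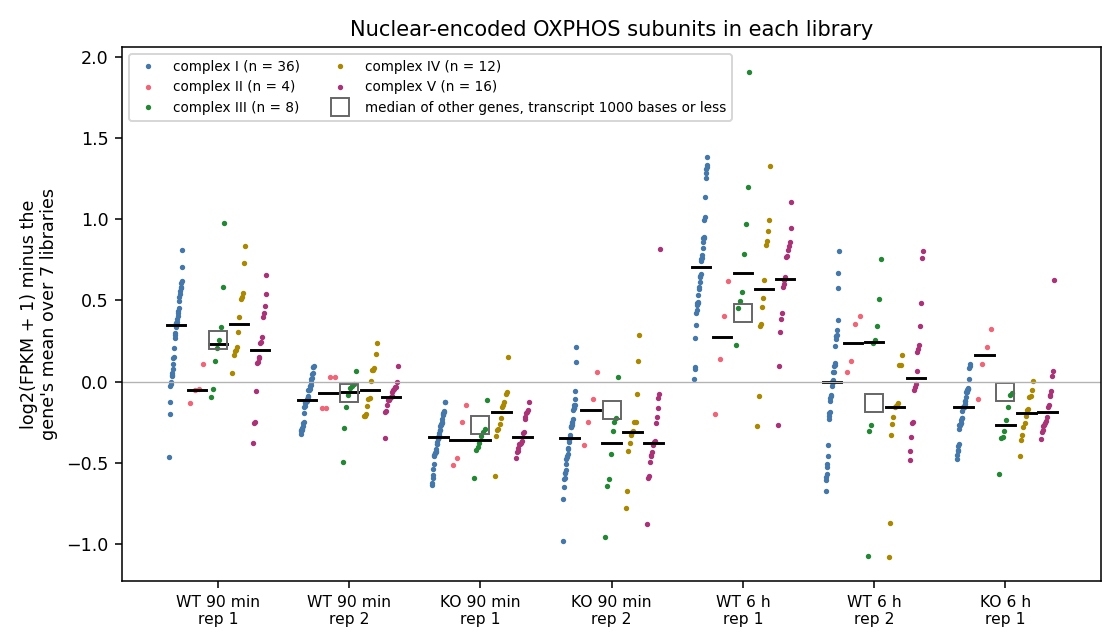
Each point is 1 subunit in 1 library, as log2(FPKM + 1) minus the mean of that gene over the 7 libraries; WT is wild type and KO GdX-deficient, bars are medians per complex and open squares are medians of the other genes with transcripts of at most 1000 bases. Wild-type replicate 1 at 6 h lies highest, with a member median of 0.64 and a square at 0.42, and the GdX-deficient libraries at 90 min lie lowest, with member medians of −0.32 and −0.33 and squares at −0.27 and −0.18.

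Subunits of ATP synthase, cytochrome c oxidase and complex I made up most of the members' RNA per transcript length. Over the 7 libraries, complex V held 32.3% of the summed FPKM of the members, complex I 29.2%, complex IV 26.5%, complex III 9.52% and complex II 2.51%. Per gene, the median of the members' means was 217 FPKM in complex IV, 205 in complex V, 110 in complex III, 81.6 in complex I and 63.0 in complex II. Complexes IV and V lay close together in this order, as did complexes I and II. The most abundant members were Cox4i1 and Cox7c of complex IV (means of 515 and 433 FPKM), the catalytic beta subunit Atp5b and the small epsilon subunit Atp5e of complex V (428 and 440 FPKM), Uqcrh and Uqcr10 of complex III (293 and 148 FPKM), Ndufa4 and Ndufa3 by name in complex I (221 and 173 FPKM), and Sdhb and Sdhc of complex II (93.4 and 69.3 FPKM). Sdhb is the iron-sulfur subunit of complex II and Sdhc one of its membrane anchors.

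All members together summed to 12770 and 9707 FPKM in wild type at 90 min, 8314 and 8110 in GdX-deficient spleen at 90 min, 17039 and 10174 in wild type at 6 h, and 8888 in the GdX-deficient library at 6 h. The 3 GdX-deficient libraries were the 3 lowest. Globin genes took 22.3% and 19.2% of the FPKM sum in wild type at 90 min, 30.9% and 23.5% in GdX-deficient spleen at 90 min, 9.46% and 7.73% in wild type at 6 h, and 13.6% in the GdX-deficient library at 6 h. With the globin genes taken out of the sum, the members were 1.78% to 2.10% of it in wild type at 90 min, 1.62% to 1.68% in GdX-deficient spleen at 90 min, 1.83% to 2.42% in wild type at 6 h and 1.72% in GdX-deficient spleen at 6 h. The genotypes still did not overlap within either time, but the gap between the nearest libraries was small.

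At 90 min the subunits read lower in GdX-deficient than in wild-type spleen across all 5 complexes, although no single member passed the test. The difference, GdX-deficient minus wild type on the log2(FPKM + 1) scale, was below 0 for 73 of 76 members with a median of −0.43, while the median over all 11378 genes was 0.07. Without replicate 1 of wild type the member median was −0.25. Medians per complex were −0.44 in complex I, −0.22 in complex II, −0.48 in complex III, −0.42 in complex IV and −0.42 in complex V. Genotype and time were tested with limma (two-sided, p-values adjusted by the Benjamini-Hochberg method over all genes tested, threshold 0.05). At 90 min limma called 0 of 76 members, with 0.0176% of all genes called, and the lowest adjusted p of a member was 0.621. A single member, Ndufa9, and 862 of all genes had an unadjusted p under 0.05.

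The summed FPKM of each complex shows the same order of groups at 90 min. Complex I summed to 3258 ± 729 (SD, n = 2) FPKM in wild type and 2362 ± 38.0 in GdX-deficient spleen, complex III to 1110 ± 306 and 762 ± 3.67, complex IV to 3092 ± 566 and 2256 ± 100.5, and complex V to 3521 ± 557 and 2613 ± 95.5. Complex II stood nearer, with 256 ± 7.71 FPKM in wild type and 219 ± 17.3 in GdX-deficient spleen. The wild-type pair was the more spread in complexes I, III, IV and V.

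Ndufa9, an accessory subunit of complex I, read 79.49 and 53.86 FPKM in wild type and 39.08 and 38.07 in GdX-deficient spleen at 90 min. Both GdX-deficient libraries lay below both wild-type ones. Cox5a, a subunit of complex IV that holds to the matrix side, read 243.64 and 182.77 FPKM in wild type and 131.68 and 114.67 in GdX-deficient spleen, the lowest difference of any member (−0.78, SE 0.37, adjusted p = 0.621 by limma). The c-ring gene Atp5g3 read 270.84 and 229.23 FPKM in wild type and 172.75 and 153.08 in GdX-deficient spleen (−0.61, SE 0.28, adjusted p = 0.621). In both genes the groups did not overlap, and the wild-type replicates differed by more than the GdX-deficient ones.

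Both GdX-deficient libraries lay below both wild-type ones at 90 min in 63 of 76 members, against 23.4% of all genes tested. These were 29 of 36 members of complex I, 3 of 4 of complex II, 8 of 8 of complex III, 9 of 12 of complex IV and 14 of 16 of complex V. No member had both GdX-deficient libraries above both wild-type ones, against 24.1% of all genes. Atp5sl, the complex I assembly factor named as an ATP synthase gene, had the highest difference (0.56, SE 0.39, adjusted p = 0.640 by limma), but it rested on 1 library: it read 12.48 and 12.79 FPKM in wild type and 11.99 and 29.89 in GdX-deficient spleen, and the difference was −0.07 without the latter library.

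Short transcripts that are no members read lower too. Of the 757 other tested genes with transcripts of at most 1000 bases, 81.4% read lower at 90 min without GdX than with it, with a median of −0.34. The 49 members of that length were all lower, with a median of −0.45. Among longer transcripts the members and the rest lay further apart: 24 of 27 members were lower, with a median of −0.40, against 40.5% of 10347 other genes and a median of 0.10. With a smooth trend on transcript length removed from each library, the median over the members was −0.15, with 67 of 76 still below 0. With FPKM rescaled without the globin genes it was −0.23, and with quantile normalization −0.26.

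**Figure D2:**
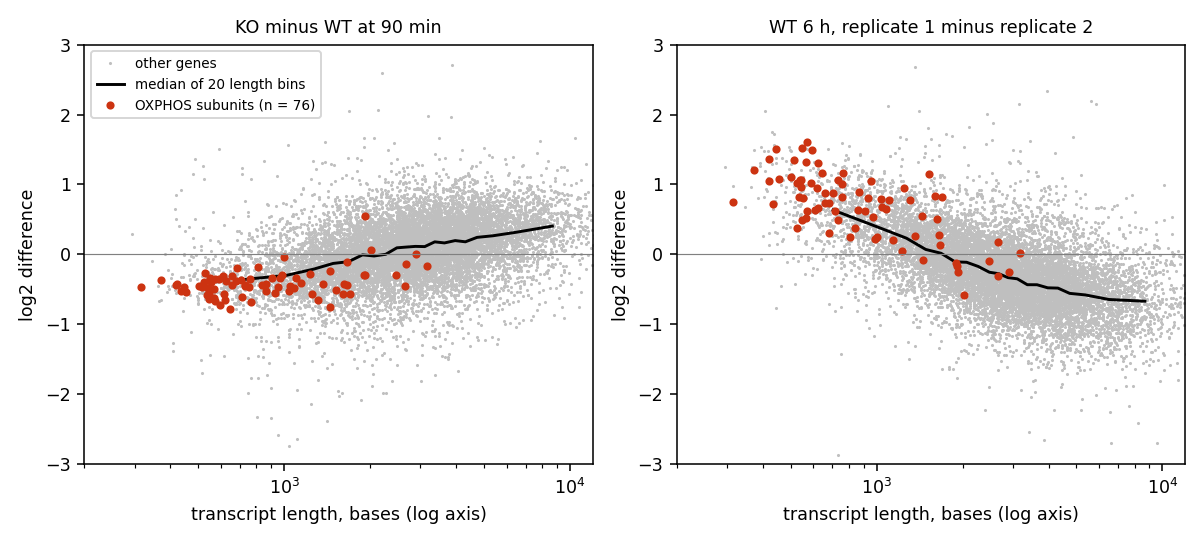
Log2 difference against transcript length in bases (log axis) for the genotypes at 90 min (left) and for the wild-type replicates at 6 h (right); red points are the 76 subunits, grey points other genes, and the line joins medians of 20 length bins (73 genes outside the plotted range are not drawn). Short transcripts lie below 0 on the left, where the members have a median of −0.43, and above 0 on the right, where they have a median of 0.74.

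At 6 h the GdX-deficient library read below both wild-type libraries in 49 of 76 members, against 25.3% of all genes. The median difference over the members was −0.46, with 68 of 76 below 0, and the median over all genes was 0.32. Per complex it was −0.46 in complex I, −0.10 in complex II, −0.62 in complex III, −0.36 in complex IV and −0.48 in complex V. In 46 of 76 members the GdX-deficient libraries lay below the wild-type ones at both times, against 13.0% of all genes. The size at 6 h depended on which wild-type library it was set against: the member median was −0.18 without replicate 1 and −0.84 without replicate 2. It was −0.18 with FPKM rescaled without the globin genes and −0.25 with quantile normalization.

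In 7 of 76 members (9.21%), against 5.47% of all genes, the GdX-deficient library at 6 h was at least 2-fold below the wild-type mean and below both libraries. These shares were not far apart, rest on 1 GdX-deficient library and were not tested. The 7 were Ndufa2, Ndufa12, Ndufb7, Ndufs3 and Ndufs6 of complex I, Uqcrq of complex III and Cox5a of complex IV. Ndufb7, an accessory subunit on the intermembrane-space side of complex I, read 109.20 FPKM in the GdX-deficient library and 363.58 and 146.14 in wild type. Cox5a read 156.77 FPKM against 496.70 and 220.77. In both, wild-type replicate 1 was more than 2 times replicate 2. In 3 members, against 54.9% of all genes, the GdX-deficient library lay above both wild-type ones: Sdha, the flavoprotein subunit of complex II (70.88 against 48.99 and 58.78 FPKM), Atp5sl (26.03 against 13.57 and 16.34) and Cox6b2 (7.21 against 5.77 and 2.87).

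With both times in 1 fit and time as a covariate, 3 GdX-deficient libraries were compared with 4 wild-type ones. The median over the members was −0.45, with 73 of 76 below 0, against 0.16 over all genes. In this comparison limma called 0 of 76 members, with 0.0439% of all genes called, 27 of 76 members and 3071 of 11378 genes had an unadjusted p under 0.05, and the lowest adjusted p was 0.109, that of Ndufa12. Complex III had the lowest median, −0.52, and complex II the highest, −0.17. The lowest member in each complex was Ndufb7 in complex I (−0.82, SE 0.30, adjusted p = 0.130 by limma), Sdhb in complex II (−0.49), Uqcrq in complex III (−1.06, SE 0.35, adjusted p = 0.116, and −0.50 without the GdX-deficient library at 6 h), Cox5a in complex IV (−0.89, SE 0.28, adjusted p = 0.111) and Atp5g3 in complex V (−0.67, SE 0.22, adjusted p = 0.115). The highest in each were Ndufa10 (−0.08), Sdha (0.16), Uqcrc2 (−0.32), Cox6b2 (0.03) and Atp5sl (0.64). Without replicate 1 of GdX-deficient spleen at 90 min, 3 members passed (Atp5sl higher, Atp5g1 and Ndufa12 lower), among 1674 of all genes. With the length trend removed the median was −0.22, with 66 of 76 below 0, with the globin genes taken out −0.22 and with quantile normalization −0.24.

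**Figure D3:**
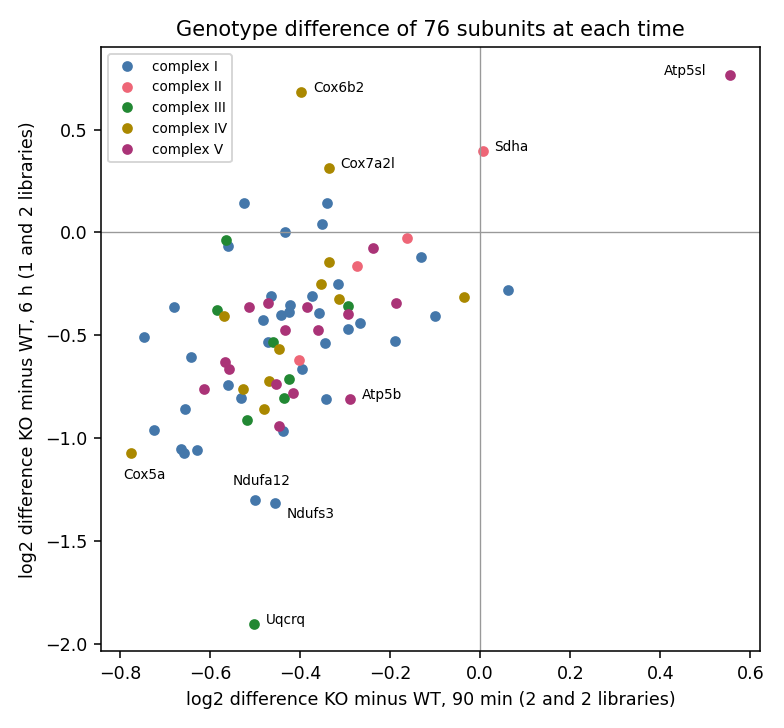
Each point is 1 subunit, with its log2 difference of GdX-deficient minus wild type at 90 min (horizontal axis) and at 6 h (vertical axis), coloured by complex. Most points lie lower left, at medians of −0.43 and −0.46; Uqcrq lies lowest at 6 h (−1.90), and Cox6b2 lies below 0 at 90 min and above 0 at 6 h.

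Neutrophil and red cell markers moved with genotype beside these values. Of 8 neutrophil genes, 7 were higher in GdX-deficient spleen with time as a covariate, with a median of 1.36, and their summed FPKM ran from 749.2 to 1190 in the wild-type libraries and from 1040 to 4353 in the GdX-deficient ones. Of 15 red cell genes tested, 13 were higher in GdX-deficient spleen, with a median of 1.34, and 2 passed the test, where 0.0439% of all genes did. All 8 genes of stromal cells (fibroblasts and smooth muscle) were lower in the GdX-deficient pair at 90 min, with a median of −1.23, whereas 7 of 8 were higher in the GdX-deficient library at 6 h, with a median of 0.79. At 6 h all 8 B cell genes, all 7 T cell genes and all 8 red pulp macrophage genes were also higher in that library, with medians of 1.57, 1.10 and 1.01. At 90 min their medians were 0.21, 0.02 and 0.02. The part of these cells in the subunits' differences was not tested.

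In wild type, 5 subunits rose between 90 min and 6 h and no subunit fell past the threshold. They were Ndufa12 and Ndufs3 of complex I, Uqcrq of complex III, and Atp5b and Atp5g1 of complex V. In this comparison limma called 5 of 76 members higher, where 4.39% of all genes tested were called higher, and 0 of 76 lower, where 6.32% were. The share of members called higher was near the background. In all, 10 of 76 members and 3262 of 11378 genes had an unadjusted p under 0.05, and of these members Cox6b2 and Cox7a2l were lower. The median difference, 6 h minus 90 min, was 0.25 over the members, with 58 of 76 above 0, and 0.05 over all genes. The member median was 0.13 with quantile normalization and 0.14 with FPKM rescaled without the globin genes. Medians per complex were 0.32 in complex I, 0.32 in complex II, 0.34 in complex III, 0.08 in complex IV and 0.21 in complex V.

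Uqcrq (chr11:53427922-53430831, GRCm38.p6), a small accessory subunit of complex III, read 68.17 and 49.61 FPKM in wild type at 90 min and 267.56 and 119.61 at 6 h. Both 6 h libraries lay above both 90 min ones, but replicate 1 was more than 2 times replicate 2. The difference was 1.60 (SE 0.38, adjusted p = 0.0286 by limma). In GdX-deficient spleen Uqcrq read 46.32 and 35.85 FPKM at 90 min and 47.12 at 6 h, below every wild-type library.

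Ndufa12 (chr10:94199035-94221440), an accessory subunit of complex I, read 75.21 and 65.45 FPKM at 90 min and 206.59 and 143.79 at 6 h in wild type. The times were well apart, and the difference was 1.28 (SE 0.29, adjusted p = 0.0244 by limma). In GdX-deficient spleen it read 59.33 and 41.02 FPKM at 90 min and 69.32 at 6 h. Ndufs3 (chr2:90894627-90904721), a core subunit of the hydrophilic arm, read 90.46 and 71.33 FPKM at 90 min and 211.12 and 132.05 at 6 h in wild type (1.05, SE 0.29, adjusted p = 0.0489). In GdX-deficient spleen it read 58.87 and 57.79 FPKM at 90 min and 66.60 at 6 h, again below every wild-type library.

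Atp5b (chr10:128083307-128090388), the subunit that carries the catalytic sites of ATP synthase, read 337.38 and 365.18 FPKM at 90 min and 631.28 and 705.81 at 6 h in wild type. Here the replicates of each time were close, and replicate 2 was the higher at both times. The difference was 0.93 (SE 0.25, adjusted p = 0.0470 by limma). In GdX-deficient spleen Atp5b read 308.43 and 267.13 FPKM at 90 min and 380.46 at 6 h. Atp5g1 (chr11:96072793-96075694), 1 of the 3 genes for the c subunit of the rotor ring, read 82.71 and 90.83 FPKM at 90 min and 190.52 and 167.90 at 6 h in wild type (1.04, SE 0.26, adjusted p = 0.0366). In GdX-deficient spleen it read 75.29 and 53.20 FPKM at 90 min and 92.73 at 6 h.

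**Figure D4:**
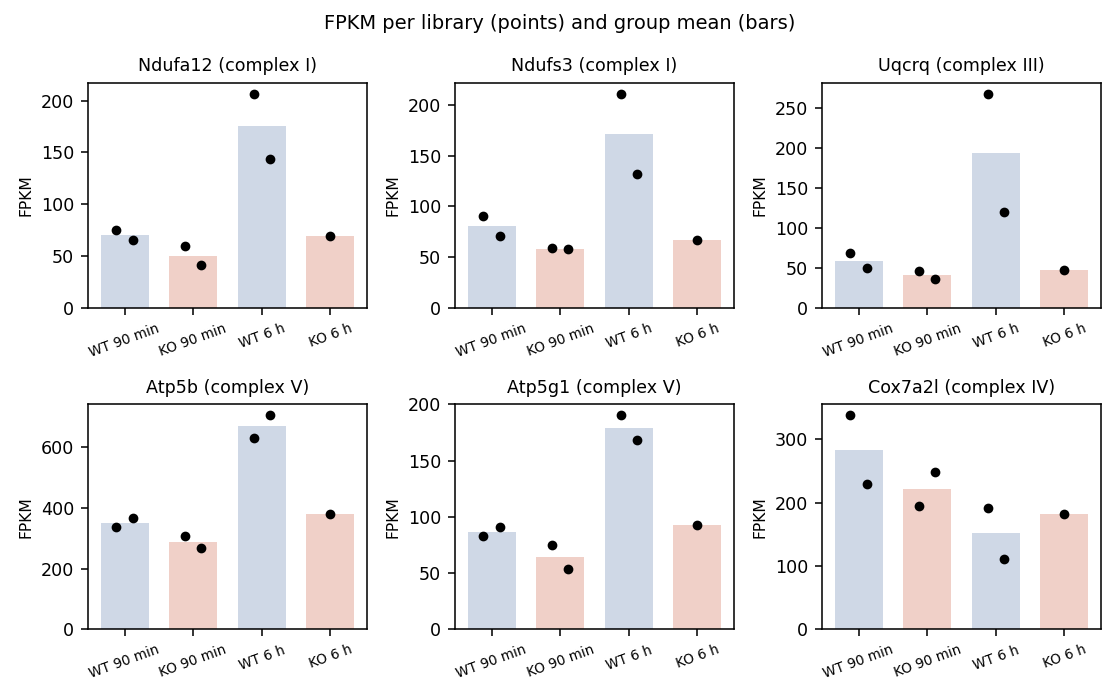
FPKM in each library (points) and group means (bars, axes from 0) for the 5 subunits that rose in wild type and for Cox7a2l. In the 5 the wild-type libraries at 6 h lie above all others, while the GdX-deficient library at 6 h stays between 47.12 FPKM (Uqcrq) and 380.46 FPKM (Atp5b).

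These calls depended on the setting and on single libraries, 1218 of all genes being called in the main comparison. With all libraries kept, none of the 5 passed with no filter on low values, where 635 of all genes were called. Ndufa12 alone passed with quantile normalization (1370 of all genes), and Ndufa12 and Uqcrq with the globin genes taken out (708 of all genes). In a fit of the 4 wild-type libraries alone, Atp5g1 and Ndufa12 passed, among 1091 of all genes. Without replicate 2 of wild type at 90 min no member passed, although the differences of the 5 were still 0.88 (Ndufs3) to 1.38 (Uqcrq), and without replicate 1 only Uqcrq passed. Without either GdX-deficient library at 90 min, which enters only through the shared spread and leaves the differences as they are, Atp5g1 and Ndufa12 passed. Ndufs3 also missed the threshold with a pseudocount of 0.1 (adjusted p = 0.0510 by limma) and with a mean of at least 5 FPKM (adjusted p = 0.0530). Without replicate 1 of wild type at 6 h, Atp5b, Ndufa12 and Uqcrq passed upwards and Cox6b2, Cox7a2l and Uqcrh downwards, among 1517 of all genes, and the median over the members was −0.10. Without replicate 2 of that group 16 members passed, all higher, among 1774 of all genes, and the median was 0.56. With the length trend removed 9 members passed, among 2483 of all genes: the same 5 with Atp5g2 and Ndufb6 higher, and Cox6b2 and Cox7a2l lower.

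Both wild-type libraries at 6 h lay above both at 90 min in 25 of 76 members, against 30.3% of all genes, and below both in 3 of 76, against 27.6%. The 25 included 11 of 36 members of complex I, 3 of 4 of complex II, 4 of 8 of complex III, 1 of 12 of complex IV and 6 of 16 of complex V. The 3 lower ones were Cox7a2l, Cox6b2 and Ndufb11. Cox7a2l, the supercomplex factor, read 338.11 and 229.07 FPKM at 90 min and 191.69 and 110.88 at 6 h (−0.93, SE 0.33, adjusted p = 0.104 by limma). Cox6b2, an isoform known from testis, read 13.60 and 8.65 FPKM at 90 min and 5.77 and 2.87 at 6 h (−1.21, SE 0.36, adjusted p = 0.0618). Ndufb11 of complex I read 200.81 and 140.81 FPKM at 90 min and 133.26 and 86.22 at 6 h (−0.64, SE 0.31, adjusted p = 0.204). In these genes replicate 1 was the higher at both times. Uqcrh, the hinge protein between cytochrome c1 and cytochrome c, read 532.27 and 282.22 FPKM at 90 min and 370.33 and 127.72 at 6 h, so that the times overlapped (−0.83, SE 0.48, adjusted p = 0.283). When single libraries were left out, the difference of Uqcrh ran from −1.59 to −0.066. Cox7a2l then ran from −1.32 to −0.54, Cox6b2 from −1.62 to −0.81 and Ndufb11 from −0.96 to −0.33.

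With both genotypes in 1 fit and genotype as a covariate, only Atp5g1 rose past the threshold (0.84, SE 0.22, adjusted p = 0.0496 by limma), 1 of 76 members where 2.79% of all genes were called higher. No member was called lower, where 2.65% of all genes were. The median was 0.20 over the members, with 60 of 76 above 0, and 0.14 over all genes. It was 0.048 without replicate 1 of wild type at 6 h, 0.36 without replicate 2 of that group, 0.13 when replicate 2 of the 90 min wild-type pair was left out, 0.096 with quantile normalization and 0.12 without the globin genes. Of 13 members with an unadjusted p under 0.05, as had 3029 of 11378 genes, Cox6b2 and Cox7a2l were lower. Atp5g1 missed the threshold under each alternative setting run that kept all libraries, with differences of 0.72 to 0.85 and adjusted p of 0.0530 to 0.0987 by limma; with the length trend removed, Ndufa12 passed in its place.

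In GdX-deficient spleen the 6 h library lay above both 90 min libraries in 49 of 76 members, against 56.8% of all genes. The median difference was 0.17 over the members and 0.25 over all genes, without a test. The member median was 0.02 with the length trend removed and 0.08 with quantile normalization. It was 0.35 in complex II, 0.18 in complex I, 0.19 in complexes III and V and 0.02 in complex IV. The largest value among the members called in wild type was 0.54 for Atp5g1, followed by 0.48 for Ndufa12 and 0.41 for Atp5b, with 0.20 for Uqcrq and 0.19 for Ndufs3. Whether the change with time differed between genotypes was not tested, since it would rest on 1 library.

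Markers of lymphocytes, macrophages, stroma and red cells moved with time in wild type. There 7 of 7 T cell genes, 7 of 8 B cell genes and 8 of 8 red pulp macrophage genes were lower at 6 h, with medians of −1.08, −1.09 and −1.22, of which 3, 3 and 5 fell past the threshold, where 6.32% of all genes did. The red cell genes were lower in 15 of 15, with 9 past the threshold, and the stromal genes in 8 of 8, with a median of −1.16 and 5 past the threshold. In the GdX-deficient library at 6 h the stromal genes were higher than at 90 min in 8 of 8, with a median of 0.72, and 5 of 7 T cell genes, 5 of 8 B cell genes and 3 of 8 red pulp macrophage genes were higher, with medians of 0.04, 0.08 and −0.14. The red cell genes were lower there in 14 of 15. Whether these changes differed between genotypes was not tested. In GdX-deficient spleen at 6 h the summed B cell genes reached 1941 FPKM, against 529.2 and 596.4 in wild type at 6 h. The part of these cells in the subunits' change was not tested.

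The isoform pairs showed the forms usual outside muscle. Cox4i1 read 366.40 to 898.41 FPKM over the 7 libraries and the lung isoform Cox4i2 0.14 to 0.70. Cox6a1 read 293.12 to 525.24 FPKM and its heart and muscle isoform Cox6a2 2.41 to 9.02, with its highest values, 9.02 and 7.92, in wild type at 6 h. Cox7a2 read 83.90 to 143.40 FPKM and its muscle isoform Cox7a1 0.13 to 1.39. Cox8a read 261.02 to 393.28 FPKM, while Cox8b was listed at 0 in 6 of 7 libraries. Cox6b1 read 188.02 to 365.89 FPKM and Cox6b2 2.87 to 13.60. Ndufa4 read 179.58 to 296.14 FPKM and its paralog Ndufa4l2, a gene known to respond to hypoxia, 0.40 to 1.78. Markers of heart and skeletal muscle summed to 2.75 to 4.57 FPKM.

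The 3 genes of the c ring, which encode 1 mature protein behind different import sequences, stood in the order Atp5g2, Atp5g3 and Atp5g1 in every group by mean. Their means in wild type at 90 min were 310, 250 and 86.8 FPKM, and at 6 h 482, 334 and 179 FPKM. The difference between the times in wild type was 1.04 in Atp5g1, 0.62 in Atp5g2 (SE 0.27, adjusted p = 0.171 by limma) and 0.39 in Atp5g3 (SE 0.28, adjusted p = 0.398). The first passed the test, and the difference between the genes was not tested. With the length trend removed Atp5g2 passed as well (adjusted p = 0.0426 by limma), and without single libraries Atp5g2 ran from 0.37 to 0.86 and Atp5g3 from 0.083 to 0.70.

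Promoter sequence was read from the RefSeq table (GRCm38.p6), which held 65 of the 76 members. A window of 300 bases, from 250 before to 50 after the start of transcription, was searched on both strands for 3 motifs of factors known for respiratory chain genes. GCGCATGCG, a core of the site of NRF1, was found in 8 members (12.3%) and in 1.95% of 27025 genes with a promoter. CCGGAAG, of the ETS family to which GABP belongs, was found in 16 members (24.6%) and in 9.93% of genes. AAGATGGCG, of YY1, was found in 8 members (12.3%) and in 1.64% of genes. At least 1 of the 3 was in 27 members (41.5%) and in 12.7% of genes, and no matches of different motifs overlapped. The 150 bases before the start are printed 5′ to 3′ on the gene's strand for the 4 subunits that rose in wild type and are in the table. Those of Atp5k and Cox6a1, which hold an NRF1 core and an ETS motif, are printed too. Atp5l and Uqcr11 also hold both motifs and are not printed. The start of Atp5g1 in that table lies inside the span of the gene given above, so that part of its stretch overlaps the gene. Capitals mark motif letters on either strand, an ETS motif on the other strand reading CTTCCGG.
Ndufs3 (chr2:90904722-90904871, minus strand): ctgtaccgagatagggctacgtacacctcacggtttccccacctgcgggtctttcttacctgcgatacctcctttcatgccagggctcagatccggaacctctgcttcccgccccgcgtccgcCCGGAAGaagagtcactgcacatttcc
Ndufa12 (chr10:94198885-94199034, plus strand): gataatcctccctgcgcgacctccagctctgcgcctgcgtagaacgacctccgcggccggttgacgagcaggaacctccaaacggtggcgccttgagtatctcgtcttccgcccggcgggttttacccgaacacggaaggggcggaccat
Atp5b (chr10:128083157-128083306, plus strand): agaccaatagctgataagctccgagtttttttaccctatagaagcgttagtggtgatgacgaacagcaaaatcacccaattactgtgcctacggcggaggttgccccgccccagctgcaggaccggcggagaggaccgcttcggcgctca
Atp5g1 (chr11:96075632-96075781, minus strand): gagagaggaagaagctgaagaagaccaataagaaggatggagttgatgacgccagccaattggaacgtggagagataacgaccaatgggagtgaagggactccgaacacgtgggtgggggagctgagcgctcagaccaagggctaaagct
Atp5k (chr5:108434400-108434549, minus strand): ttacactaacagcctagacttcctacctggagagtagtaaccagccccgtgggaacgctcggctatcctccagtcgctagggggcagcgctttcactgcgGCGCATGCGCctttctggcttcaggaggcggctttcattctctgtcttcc
Cox6a1 (chr5:115348959-115349108, minus strand): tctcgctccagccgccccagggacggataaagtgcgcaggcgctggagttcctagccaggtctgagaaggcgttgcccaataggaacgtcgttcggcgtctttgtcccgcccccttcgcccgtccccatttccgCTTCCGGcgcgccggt
Of the 4 that rose, Ndufs3 holds an ETS motif, and the letters of the 3 motifs are not in the windows of Ndufa12, Atp5b and Atp5g1. In Atp5k the NRF1 core matches on both strands at overlapping positions, since its letters read nearly the same on each; its ETS motif lies after the start and is not shown. The Cox6a1 stretch shows its ETS motif, while its NRF1 core lies further upstream. A match is a run of letters and was not measured as a bound site.

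Genes that work beside the subunits were read from the same fits. Cyc1 and Cycs, for cytochromes c1 and c, and Ndufab1, the acyl carrier subunit of complex I, fall outside the name rule. In wild type Cyc1 differed by 0.82 between the times (SE 0.23, adjusted p = 0.0546 by limma), Ndufab1 by 0.87 (SE 0.28, adjusted p = 0.0736) and Cycs by 0.75 (SE 0.27, adjusted p = 0.106). Of 5 tested genes outside the name rule 4 were higher at 6 h, Usmg5 among them (0.43, SE 0.36, adjusted p = 0.476 by limma). Atpif1 was lower (−1.05, SE 0.31, adjusted p = 0.0618 by limma). Among assembly factors, 1 of 13 for complex I, 1 of 4 for complex II, 0 of 5 for complex III, 4 of 19 for complex IV and 0 of 3 for complex V rose in wild type, where 4.39% of all genes were called higher, and none fell. The share in the lists of complexes I, III and V was near that background or at 0, and 1 gene makes up that of complex II. Sdhaf1, which helps to put the iron-sulfur clusters into Sdhb, read 39.60 and 35.05 FPKM at 90 min and 153.17 and 111.67 at 6 h in wild type (1.78, SE 0.26, adjusted p = 0.00572). In GdX-deficient spleen it read 22.65 and 20.07 FPKM at 90 min and 36.69 at 6 h. The 4 of complex IV were Cox10 and Sco1, which serve its heme and copper sites, Lrpprc, which stabilizes mitochondrial mRNA, and Coa7.

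Of 77 mitochondrial ribosomal protein genes, which serve the translation of the mitochondrially encoded subunits, 11 rose in wild type, where 4.39% of all genes were called higher, and none fell, with a median of 0.67 and 73 higher. Mrpl2 read 36.88 and 30.51 FPKM at 90 min and 141.08 and 85.40 at 6 h (1.68, SE 0.29, adjusted p = 0.0104 by limma). At 90 min the genotype median of these genes was −0.36, with 5 of 77 higher and none called. In the tricarboxylic acid cycle 1 of 18 genes rose, a share near the background of 4.39%: Suclg2 of succinyl-CoA synthetase (1.34, SE 0.28, adjusted p = 0.0193). Of 13 regulators of mitochondrial transcription and biogenesis none rose and 1 fell, a share near the 6.32% of all genes called lower: Pparg (−1.29, SE 0.25, adjusted p = 0.0149). Of 7 tested genes in a mixed list for itaconate, succinate and the metabolic switch of macrophages, Hif1a among them, none passed in either comparison of time.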

How the data were processed

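RNA of 7 spleen libraries was sequenced on a BGISEQ-500 instrument after oligo-dT selection or rRNA depletion, per the labels' protocols, which do not say which. The authors deposited FPKM values with 2 decimals, 1 column per library and 17920 genes, per the file headers. HISAT, HISAT2 2.0.4, Bowtie2, RSEM and the build GRCm38.p5 are named without roles, per the submitters' processing notes. Counts were not used. All values were converted to log2(FPKM + 1), which understates changes of low genes, and limma 3.58.1 (R 4.3.3, empirical Bayes with a trend) was run on genes with a mean of at least 1 FPKM. The 4 groups were fitted together for genotype at 90 min and for time in wild type; genotype and time were also fitted as an additive model. P-values measure the spread between libraries. Transcript lengths came from GENCODE annotation matched through RefSeq identifiers (all 76 members), and coordinates and promoters from RefSeq GRCm38.p6. FPKM fits the length of a transcript only as far as fragments are drawn evenly, so the length trend was also removed by loess (span 0.5). The fits were tested on simulated data. Members, gene lists and the rule for naming were chosen with earlier results of these data known. Named were the 2 most abundant members per complex, the highest and lowest in each complex for genotype with time as a covariate and for time in wild type, up to 5 called members per direction, and the isoform sets; Ndufa9 and the other members named in counts were chosen after their values were seen. Alternatives were a pseudocount of 0.1, no filter or a mean of at least 5 FPKM, quantile normalization, rescaling without globin genes, removal of the length trend, blocking on the replicate number, fitting the 4 compared libraries alone, and leaving out each library. The red cell list is reported only as a whole.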

Additional observations from a re-analysis of the deposited data

Results flagged for a closer look

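Cox6b2 had genotype differences of opposite sign at the 2 times, and every library lay on the side given. At 90 min both GdX-deficient libraries lay below both wild-type ones, as in 23.4% of all genes tested, with a log2 difference of −0.40. At 6 h the GdX-deficient library lay above both wild-type ones, as in 54.9% of all genes, with a difference of 0.68. The share of all genes with both was not counted. The 90 min value was −0.05 with the trend on transcript length removed and ran from −0.70 to −0.099 when single libraries were left out. With that trend removed the 6 h value was 0.91. The difference between the times was not tested, and at 6 h it rests on 1 GdX-deficient library. Cox6b2 is also the member with the fewest fragments. The groups have too few libraries for a check of single outlying values.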

How the results depend on the processing

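The sign of the member medians for genotype at 90 min, genotype with time as covariate, genotype at 6 h, time with genotype as covariate and time in GdX-deficient mice was kept under every alternative run. Leaving out single libraries gave medians of −0.61 to −0.25 for genotype at 90 min, −0.59 to −0.32 with time as covariate, −0.84 to −0.18 at 6 h, 0.048 to 0.36 for time with genotype as covariate, 0.15 to 0.18 for time in GdX-deficient mice, and −0.10 to 0.56 for time in wild type, the only one to change sign. With quantile normalization the medians were −0.26, −0.24, −0.25, 0.096 and 0.080 for the first 5 of these and 0.13 for time in wild type, and rescaled without globin genes −0.23, −0.22, −0.18, 0.12, 0.13 and 0.14. The count of members past the threshold stayed at 0 for genotype at 90 min in all alternatives and went from 0 to 3 with time as covariate when libraries were left out. For time in wild type the main count of 5 became 4 with a pseudocount of 0.1 or a mean of at least 5 FPKM, 0 with no filter, 1 with quantile normalization, 2 without globin genes, 9 with the length trend removed and 2 with only the 4 libraries compared, and 0 to 16 when libraries were left out. The number called over all genes moved too, from 1218 to 2483 with the length trend removed, 1091 with only the 4 libraries, and 450 to 1774 without single libraries. With genotype as covariate the count was 1, among 619 of all genes. It became 0 with a pseudocount of 0.1 (557 of all genes), no filter (104) or a mean of at least 5 FPKM (477). It was also 0 with quantile normalization (883), no globin genes (327) or the replicate block (765), and it moved when libraries were left out. Among single genes, Cox6b2 with time as covariate turned from 0.03 to −0.27 with quantile normalization, −0.082 with the replicate block and −0.40 to 0.29 without single libraries. Ndufa10 turned from −0.08 to 0.16 without globin genes and ran from −0.22 to 0.063 without single libraries; Sdha for genotype turned from 0.16 to −0.032 with the length trend removed. For time in wild type, leaving out single libraries moved Sdha from −0.15 to 0.11 and Atp5l from −0.79 to 0.27. The cause was not tested. Same-numbered libraries deviated together in wild type at the 2 times (correlation 0.77) but not between wild type and GdX-deficient at 90 min (−0.12) or between GdX-deficient at 90 min and wild type at 6 h (0.08). The numbers were therefore not taken as pairs, and the main fit of time in wild type takes no account of the deviation its libraries share. With the replicate block, time in wild type had 6 members past the threshold, the same 5 and Cox6b2 lower, and genotype had 0. With the numbers crossed in the GdX-deficient libraries at 90 min, an alternative chosen after seeing the data, 0 members and 2 genes in all passed. Groups of 1 or 2 libraries limit every value here: where an arm was left with 1 library, it was assumed to vary like the other groups.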
